A study of Mus musculus with 33 samples.

Results

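Retinoic acid, a signal made from vitamin A, is produced and limited by enzymes and carried by small binding proteins, and 9 of the genes for these proteins were followed across the cell types of the mouse colon mesenchyme. The 9 genes were the rows of that name among the 31053 genes of 3 single-cell matrices: Rdh10, Dhrs3, Aldh1a1, Aldh1a2, Aldh1a3, Rbp4, Crabp1, Crabp2 and Cyp26b1. All 9 were found once in each matrix, and the rule that names them uses no measured value. The series lists 33 samples, and 3 of them, the single-cell libraries, entered this work, the other 30 being not analysed here.

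The whole mesenchyme library (1 sample) came from mice whose genotype is given as control, and its cells were sorted as EpCAM- CD45-, which removes epithelial and blood cells. The GFP-low group (2 samples, here GFP-low library 1 and 2 after the replicate numbers in the labels) came from PdgfraH2BeGFP mice (JAX strain 007669), which carry a nuclear green fluorescent reporter at the Pdgfra locus, and unstained cells were sorted by the level of that fluorescence. All 3 libraries came from the colon of untreated adult mice, both sexes being used in the study, after removal of the muscle layer, release of the epithelium with EDTA and digestion with collagenase, and 8000 live cells were loaded for each. The labels give neither gate limits nor exact ages, nor how many mice were pooled. Genotype, sort and library fall on the same split, so they cannot be told apart, and nothing in the labels says that the replicates came from separate mice, so p-values measure the spread between these libraries, which may be technical.

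In the retinoid pathway, retinol reaches tissues bound to the carrier RBP4. RDH10 oxidises it to retinal, DHRS3 reduces retinal back to retinol, and the retinal dehydrogenases ALDH1A1, ALDH1A2 and ALDH1A3 complete the irreversible step to retinoic acid. CRABP1 and CRABP2 bind retinoic acid inside the cell, CYP26B1 breaks it down, and nuclear receptors of the RAR and RXR families read it. In the gut, retinoic acid is known for imprinting gut homing on lymphocytes and for its part in immune tolerance, and epithelial, dendritic and stromal cells are known to make it.

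The genes lie on 7 chromosomes of the GRCm38.p6 assembly. Rdh10 is at chr1:16105882-16132550, Crabp2 at chr3:87948693-87953372, Dhrs3 at chr4:144892534-144928209 and Cyp26b1 at chr6:84571414-84593908. Aldh1a3 is at chr7:66390892-66427477, Crabp1 at chr9:54764748-54773110 and Aldh1a2 at chr9:71215789-71296243. Aldh1a1 at chr19:20492583-20643463 and Rbp4 at chr19:38116620-38125321 share a chromosome. RefSeq promoter windows, each 300 bases long from 250 before to 50 after an annotated start, were on hand for 6 of the 9 genes, in 10 windows, and Aldh1a3, Rdh10 and Crabp2 had none. The windows shown belong to Aldh1a1 and Rbp4, highest in telocyte-like cells of the whole mesenchyme, and to Cyp26b1, highest in its blood endothelium-like cells. Rbp4 was nearly as high in smooth muscle- or myofibroblast-like cells. The windows shown are on GRCm38.p6, 5' to 3' along the gene's strand. Capitals mark a retinoic acid receptor hexamer (AGGTCA, the variant AGTTCA, the variant GGGTCA or the variant GGTTCA, either strand) or the letters TATAAA (either strand) at any position.
Aldh1a1, chr19:20601718-20602017, plus strand: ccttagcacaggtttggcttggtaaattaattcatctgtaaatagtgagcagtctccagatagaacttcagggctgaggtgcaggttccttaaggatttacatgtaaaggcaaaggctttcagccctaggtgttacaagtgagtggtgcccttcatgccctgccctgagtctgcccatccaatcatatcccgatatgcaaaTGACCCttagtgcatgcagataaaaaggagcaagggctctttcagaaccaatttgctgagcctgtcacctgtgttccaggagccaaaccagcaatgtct
Rbp4, chr19:38125272-38125571, minus strand: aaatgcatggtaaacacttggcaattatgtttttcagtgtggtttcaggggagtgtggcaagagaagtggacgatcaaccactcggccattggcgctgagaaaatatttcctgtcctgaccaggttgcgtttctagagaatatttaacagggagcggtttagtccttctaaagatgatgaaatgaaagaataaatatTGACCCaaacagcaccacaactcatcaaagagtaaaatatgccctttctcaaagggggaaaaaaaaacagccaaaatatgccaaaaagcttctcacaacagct
Cyp26b1, chr6:84593761-84594060, minus strand: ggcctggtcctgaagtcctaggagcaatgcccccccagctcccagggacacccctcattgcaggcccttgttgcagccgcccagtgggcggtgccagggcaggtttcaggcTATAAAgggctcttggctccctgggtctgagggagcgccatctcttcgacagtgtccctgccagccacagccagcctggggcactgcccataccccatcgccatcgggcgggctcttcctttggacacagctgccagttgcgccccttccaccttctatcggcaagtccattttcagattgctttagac

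Each of the first 2 windows held TGACCC, which is GGGTCA on the other strand, and the Cyp26b1 window held TATAAA. Aldh1a1 and Rbp4 each had another window, not shown, without a hexamer, that of Rbp4 with TATAAA. In all, 2 of the 10 windows of these genes held a hexamer and 2 held TATAAA, while a hexamer of the 4 searched was in 43.7% of the 32851 windows of all genes and TATAAA in 13.6%. The paired arrangement to which the receptors bind, 2 of these hexamers as a direct repeat with 1, 2 or 5 bases between them, was in 0.222%, 0.268% and 0.0974% of all windows and in 0 of the 10 windows of these genes. These are matches of letters in short windows. The counts come from transcript 3' ends, so they do not tell which of the annotated starts of Aldh1a1 or Rbp4 was used.

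Barcodes with 1000 or more UMIs, 500 or more genes and no more than 20% of UMIs from mitochondrial genes were taken as cells, 17652 in all, 6793 of the whole mesenchyme and 4834 and 6025 of GFP-low library 1 and 2. The libraries held 41863444, 39190629 and 52313765 UMIs, with a median of 4429, 6446.5 and 7025 per cell, and any 2 of them shared between 6 and 11 cell barcodes. Cells were grouped into 21 clusters without any of the retinoid genes, and 19 clusters took a class name from marker genes. Cd81-high fibroblast-like cells numbered 450, 2885 and 4167 (6.62%, 59.7% and 69.2% of the cells of whole mesenchyme, GFP-low library 1 and GFP-low library 2), and Cd81-low fibroblast-like cells numbered 3371, 1198 and 1353. These shares follow the sort and are not compared. Telocyte-like cells (1573, 22 and 15), the subepithelial cells rich in Pdgfra, carried 1211 CPM of Pdgfra in the whole mesenchyme. Blood endothelium-like (801), smooth muscle- or myofibroblast-like (155), pericyte-like (84), glia-like (65) and lymphatic endothelium-like (59) cells were described in the whole mesenchyme only. Cd81 stood at 483.5, 574 and 409.7 CPM in Cd81-high and at 19.9, 32.0 and 24.6 CPM in Cd81-low fibroblast-like cells. Stress or immune genes were among the leading genes of several fibroblast clusters (Saa3 and Ereg in a Cd81-low cluster, C3 and Penk in 1 Cd81-high cluster, Il6 and Mt2 in another).

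Levels are CPM, the UMIs of a gene per 1000000 UMIs summed over the cells of a class in a library, with an exact 95% Poisson interval in brackets that covers counting error only. Values in brackets are not a test. Droplets without a cell also contain RNA, and this free RNA, read from barcodes of 1 to 100 UMIs in the same library, is given beside the levels. Free RNA is a mixture in which 1 gene's share reflects all cells that released it. A class may owe some of its UMIs to that mixture, in proportion to the share of free RNA in its sum. That share was estimated at between 0.211% and 36.1% of the fibroblast sums. A level below or close to that of free RNA therefore does not by itself tell where the UMIs came from.

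Rdh10, the retinol dehydrogenase, was highest in telocyte-like cells. Its level there was 327 CPM (313 to 341) in the whole mesenchyme, and 344 CPM and 449 CPM in the 22 and 15 telocyte-like cells of GFP-low library 1 and 2. Cd81-low fibroblast-like cells followed with 162 CPM (156 to 168) in the whole mesenchyme, 97.0 CPM in GFP-low library 1 and 158 CPM in GFP-low library 2. Cd81-high fibroblast-like cells had 22.5, 15.03 and 20.3 CPM, so the 3 stromal classes did not overlap in any library. In the whole mesenchyme the order below was smooth muscle- or myofibroblast-like cells at 86.5 CPM (65.9 to 112), pericyte-like cells at 59.0 CPM (34.4 to 94.5), lymphatic endothelium-like cells at 50.1 CPM (24.0 to 92.2), blood endothelium-like cells at 38.2 CPM (31.1 to 46.6) and glia-like cells at 24.2 CPM (9.73 to 49.9). The intervals of each neighbouring pair in that lower order overlapped. Free RNA held 125, 25.0 and 36.3 CPM of Rdh10, and telocyte-like cells were above it in every library, by 2.61 times in the whole mesenchyme. After thinning every cell to 1000 UMIs, 23.9% of telocyte-like, 14.0% of Cd81-low and 1.56% of Cd81-high cells of the whole mesenchyme had an Rdh10 UMI (57.3%, 42.8% and 11.8% before thinning).

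Dhrs3, which runs the same step in reverse, was the most even of the enzymes. Telocyte-like cells of the whole mesenchyme had 85.8 CPM (78.9 to 93.1), blood endothelium-like cells 79.97 CPM (69.4 to 91.6), Cd81-low fibroblast-like cells 78.2 CPM (74.1 to 82.5) and Cd81-high fibroblast-like cells 78.1 CPM (68.1 to 89.0), with overlapping intervals. Lymphatic endothelium-like cells had the highest value, 110.2 CPM (69.1 to 167) from 22 UMIs, which also overlapped with these. Smooth muscle- or myofibroblast-like cells (36.7 CPM), glia-like cells (31.1 CPM) and pericyte-like cells (27.8 CPM) were lower. Dhrs3 moved between libraries in both fibroblast classes: Cd81-high cells had 115 CPM in GFP-low library 1 and 46.7 CPM in GFP-low library 2, and Cd81-low cells 77.1 and 43.5 CPM. Free RNA moved with it, at 68.8 CPM in the whole mesenchyme, 83.7 CPM in GFP-low library 1 and 27.8 CPM in GFP-low library 2, and its part in these levels was not tested.

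**Figure D1:**
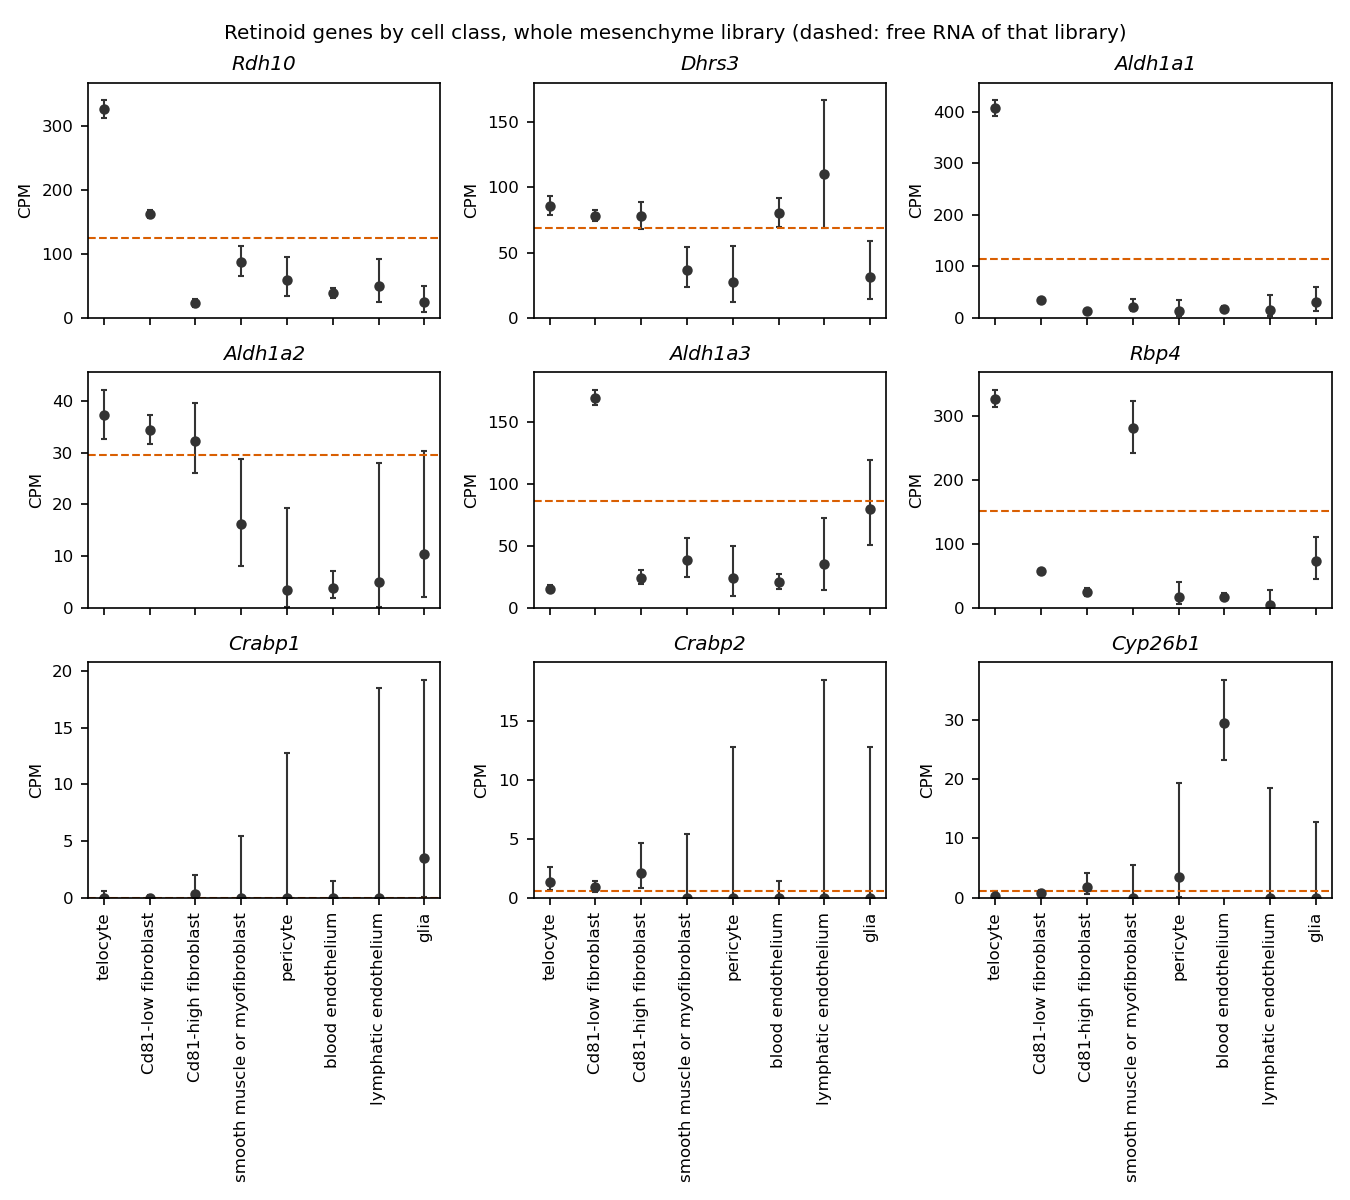
Level of the 9 genes (CPM, each panel with its own linear axis) in the classes of the whole mesenchyme library with at least 50 cells; points are the class sums, bars are exact 95% Poisson intervals and the dashed line is the level in free RNA. Rdh10, Aldh1a1 and Rbp4 peak in telocyte-like cells (327, 407 and 328 CPM), Aldh1a3 in Cd81-low fibroblast-like cells (169 CPM) and Cyp26b1 in blood endothelium-like cells (29.4 CPM).

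The 3 retinal dehydrogenases divided among the stromal classes. Aldh1a1 was the telocyte form, with 407 CPM (391.9 to 423) in the whole mesenchyme, 351 CPM (263 to 458) in GFP-low library 1 and 274 CPM (172 to 415) in GFP-low library 2. These levels were 3.58, 4.22 and 4.05 times free RNA. No other named class of the whole mesenchyme exceeded 34.2 CPM of Aldh1a1, the level of Cd81-low fibroblast-like cells, while its 213 unnamed cells had 73.1 CPM (47.7 to 107) and its free RNA held 114 CPM. Glia-like cells had 31.1 CPM, smooth muscle- or myofibroblast-like cells 22.0 CPM, blood endothelium-like cells 17.4 CPM, lymphatic endothelium-like cells 15.03 CPM, pericyte-like cells 13.9 CPM and Cd81-high fibroblast-like cells 13.0 CPM. All of these were below 0.302 times the free RNA level, and neighbours in this order had overlapping intervals. Thinned to 1000 UMIs, 28.9% of the telocyte-like cells of the whole mesenchyme had an Aldh1a1 UMI (64.7% before thinning), against 3.00% of Cd81-low cells (11.5% before thinning). Aldh1a7, a mouse copy close to Aldh1a1 in sequence, had 0 UMIs in these classes except 1 in the Cd81-high cells of GFP-low library 2. How reads that match both genes were counted is not given in the sources used here.

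Aldh1a3 was the form of Cd81-low fibroblast-like cells, with 169 CPM (163 to 176) in the whole mesenchyme, 211 CPM (201 to 221) in GFP-low library 1 and 259.7 CPM (249 to 271) in GFP-low library 2. These were 1.98, 2.74 and 2.32 times free RNA. Cd81-high fibroblast-like cells had 24.3, 37.4 and 37.7 CPM, below free RNA (85.7, 76.8 and 112 CPM) in every library. Telocyte-like cells had 15.4 CPM (12.5 to 18.7) in the whole mesenchyme, the lowest of its classes, and 3 and 0 UMIs in GFP-low library 1 and 2. Glia-like cells came second in the whole mesenchyme with 79.5 CPM (50.4 to 119) from 23 UMIs, which was 0.928 times free RNA. Smooth muscle- or myofibroblast-like cells (38.1 CPM), lymphatic endothelium-like cells (35.1 CPM), pericyte-like cells (24.3 CPM) and blood endothelium-like cells (20.5 CPM) were all below free RNA. Thinned, 14.3%, 17.3% and 21.1% of the Cd81-low cells of the 3 libraries had an Aldh1a3 UMI (45.2%, 56.8% and 60.8% before thinning), against 1.21% of the telocyte-like cells of the whole mesenchyme (4.64% before thinning).

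Aldh1a2, the form best known from embryonic mesoderm, was low and shared in the class sums. These sums include a Cd81-low group of 260 cells with a higher level, described under other observations. Telocyte-like cells had 37.2 CPM (32.7 to 42.2), Cd81-low fibroblast-like cells 34.3 CPM (31.6 to 37.2) and Cd81-high fibroblast-like cells 32.3 CPM (26.1 to 39.7) in the whole mesenchyme, with overlapping intervals. In GFP-low library 1 and 2 the fibroblast classes had 24.3 and 26.5 CPM (Cd81-low) and 29.9 and 18.4 CPM (Cd81-high). Free RNA held 29.5, 24.5 and 32.0 CPM of Aldh1a2, close to these levels. Blood endothelium-like cells had 3.86 CPM (1.85 to 7.10) in the whole mesenchyme, below the 3 stromal classes and below free RNA.

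As shares of the UMIs of the 3 Aldh1a genes, the division between telocyte-like and Cd81-low cells was plain in the whole mesenchyme and GFP-low library 1. No share was taken for the 15 telocyte-like cells of GFP-low library 2, which were fewer than 20. UMI counts of 3' ends do not grow with transcript length, but capture can differ between genes, so the shares are compared between classes. Aldh1a1 made up 88.6% (exact binomial interval 87.4 to 89.7, 2701 of 3050 UMIs) in telocyte-like cells of the whole mesenchyme and 93.1% (54 of 58) in those of GFP-low library 1. Aldh1a3 made up 71.2%, 72.6% and 74.7% in Cd81-low fibroblast-like cells of the 3 libraries. Free RNA was in between, with 49.6%, 45.1% and 32.0% Aldh1a1 and 37.5%, 41.6% and 52.9% Aldh1a3. Cd81-high fibroblast-like cells changed between libraries: Aldh1a2 led in the whole mesenchyme at 46.5%, with Aldh1a1 at 18.7% (13.5 to 24.8, 37 of 198 UMIs), while Aldh1a1 led in GFP-low library 1 and 2 at 55.2% and 52.8%. The summed level of the 3 genes was 460 CPM in telocyte-like cells of the whole mesenchyme, 238, 290 and 348 CPM in Cd81-low and 69.6, 150.4 and 119 CPM in Cd81-high fibroblast-like cells.

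**Figure D2:**
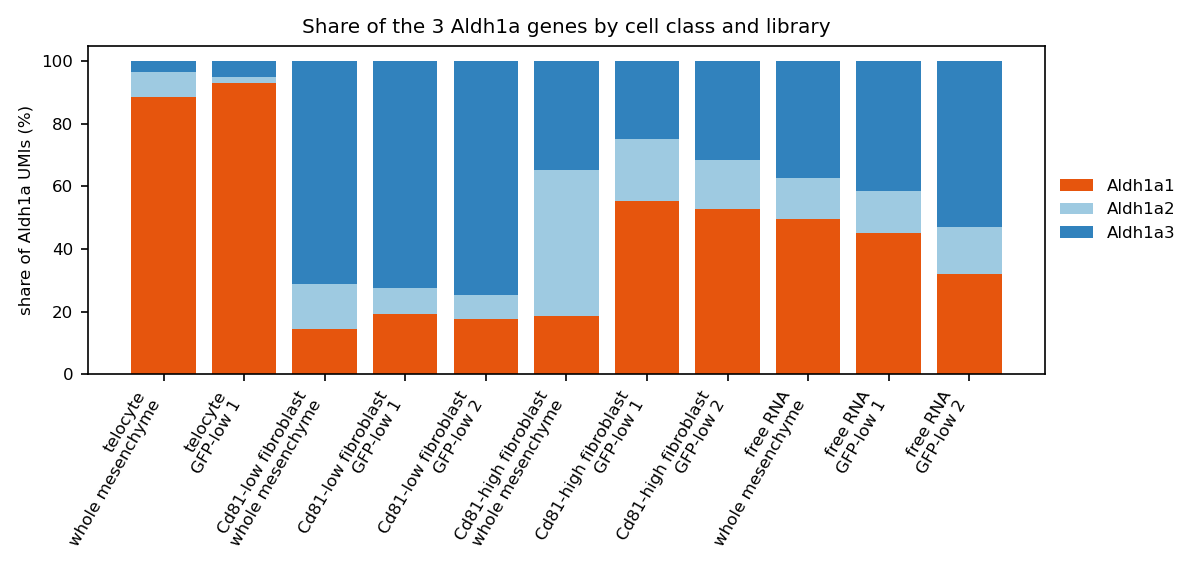
Share of Aldh1a1, Aldh1a2 and Aldh1a3 among their summed UMIs (%, stacked bars) by class and library, with free RNA at the right. Aldh1a1 fills 88.6% of the telocyte-like bar of the whole mesenchyme, Aldh1a3 fills 71.2% to 74.7% of the Cd81-low bars, and the Cd81-high bars differ between the whole mesenchyme (18.7% Aldh1a1) and the GFP-low libraries (55.2% and 52.8%).

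The successive steps were also compared within single cells. Among thinned telocyte-like cells of the whole mesenchyme, 23.2% (19.6 to 27.2) of those with an Aldh1a UMI and 24.2% (21.7 to 26.9) of those without one had an Rdh10 UMI. Among Cd81-low cells the same shares were 14.9% and 13.8% in the whole mesenchyme, 8.86% and 8.95% in GFP-low library 1 and 14.1% and 12.8% in GFP-low library 2. The intervals of each pair overlapped, so at this depth of 1000 UMIs an Rdh10 UMI was not detectably more or less frequent in cells with an Aldh1a UMI. Both UMIs were present in 7.31% of the telocyte-like and 2.88% of the Cd81-low cells of the whole mesenchyme.

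Rbp4, the secreted retinol carrier, was high in telocyte-like and in smooth muscle- or myofibroblast-like cells. Telocyte-like cells had 328 CPM (314 to 342) in the whole mesenchyme, 714 CPM (587 to 861) in GFP-low library 1 and 686 CPM (517 to 892) in GFP-low library 2. Smooth muscle- or myofibroblast-like cells had 282 CPM (243 to 324) from 192 UMIs. Thinned, 20.5% and 21.3% of the cells of these classes in the whole mesenchyme had an Rbp4 UMI. Cd81-low fibroblast-like cells had 57.6, 47.4 and 44.2 CPM and Cd81-high cells 23.9, 20.3 and 10.2 CPM across the 3 libraries, with free RNA at 151, 37.3 and 24.2 CPM. Glia-like cells had 72.6 CPM from 21 UMIs that lay in only 3.08% of the 65 cells. Blood endothelium-like and pericyte-like cells both had 17.4 CPM, and lymphatic endothelium-like cells had 5.01 CPM from 1 UMI.

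The 2 cellular retinoic acid binding proteins were nearly absent from the counts. Crabp1 had 1 UMI in the Cd81-high fibroblast-like cells of the whole mesenchyme, 1 UMI in its glia-like cells and 0 in every other named class and in free RNA, where a count of 0 allows up to 0.452 CPM in telocyte-like and 0.173 CPM in Cd81-low cells of that library (3 counts, for counting error only). Crabp2 reached 2.11 CPM (6 UMIs), 0.676 CPM (13 UMIs) and 1.10 CPM (34 UMIs) in Cd81-high fibroblast-like cells. It had 0.865 CPM (15 UMIs), 0 and 0.464 CPM (4 UMIs) in Cd81-low fibroblast-like cells, and 1.36 CPM (9 UMIs) in telocyte-like cells of the whole mesenchyme. Free RNA held 1, 0 and 0 UMIs of Crabp2.

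Cyp26b1, which degrades retinoic acid, was a gene of blood endothelium-like cells in these data. Blood endothelium-like cells had 29.4 CPM (23.1 to 36.7) from 76 UMIs. Free RNA had 1.09 CPM (0.132 to 3.94) from 2 UMIs, so the ratio of 26.9 between them is rough. The gene had 1.76, 0.156 and 0.809 CPM in Cd81-high fibroblast-like cells, 0.808, 0.246 and 0.232 CPM in Cd81-low cells and 0.301 CPM in telocyte-like cells of the whole mesenchyme. Lymphatic endothelium-like, glia-like and smooth muscle- or myofibroblast-like cells had 0 UMIs, which allows up to 15.03, 10.4 and 4.40 CPM. A Cyp26b1 UMI was seen in 5.37% of blood endothelium-like cells (1.62% when thinned), against 0.127% of telocyte-like cells (0.0636% when thinned), at median depths of 2903 and 4023 UMIs. Within the blood endothelium, the 25 cells of the whole mesenchyme in the cluster led by Selp, Madcam1 and Ackr1, genes of venules, had 66.2 CPM and the 776 cells of the other cluster 27.8 CPM. The level of the 25 cells rests on few UMIs, and the difference was not tested.

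Between the fibroblast classes, Rdh10, Aldh1a3 and Rbp4 were lower in Cd81-high cells. UMIs were summed per library and class and tested with edgeR's quasi-likelihood test with the library as a block (n = 3 libraries, Benjamini-Hochberg adjustment over 6201 genes, all held out of the clustering). Of all these genes, 13.6% were called higher and 14.7% lower in Cd81-high cells at an adjusted p under 0.05. Of the 9 retinoid genes 8 passed the filter on low counts, 3 were lower, 1 was higher and 4 did not pass the test, with a median log2 difference of 0.03 against -0.0014 over all genes tested. Crabp1 was not tested.

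Rdh10 stood at 22.5, 15.03 and 20.3 CPM in Cd81-high and at 162, 97.0 and 158 CPM in Cd81-low cells of the whole mesenchyme, GFP-low library 1 and GFP-low library 2. Every Cd81-low value lay above every Cd81-high value. The log2 difference of Rdh10 was -2.74 (SE 0.10, edgeR adjusted p = 1.40e-07). Aldh1a3 likewise had no overlap, and its log2 difference was -2.58 (SE 0.11, edgeR adjusted p = 2.57e-07). The 3 Rbp4 values of Cd81-low cells also lay above all 3 of Cd81-high cells, with a log2 difference of -1.47 (SE 0.16, edgeR adjusted p = 9.51e-05). These 3 genes were lower in Cd81-high cells in 3 of 3 libraries. The share of all tested genes whose classes separate in the same way was not counted, so the separation is a description. Telocyte markers summed to 429, 249 and 265 CPM in Cd81-high cells (6 of 7 markers with a UMI in the whole mesenchyme, Foxl1 at 0). They summed to 378, 173 and 231 CPM in Cd81-low cells, and to 2779 CPM in telocyte-like cells of the whole mesenchyme. The list holds Pdgfra, whose reporter set the GFP-low sort, so the sums do not measure telocyte RNA alone. Their bearing on Rdh10 and Rbp4 was not tested.

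Crabp2 was higher in Cd81-high cells by 1.64 on the log2 scale (SE 0.54, edgeR adjusted p = 0.0490), from levels of at most 2.11 CPM, and 11 of 13 alternatives ended this call. Dhrs3 differed by 0.32 (SE 0.13, adjusted p = 0.0912), Cyp26b1 by 1.13 (SE 0.57, adjusted p = 0.186), Aldh1a1 by 0.07 (SE 0.26, adjusted p = 0.888) and Aldh1a2 by -0.02 (SE 0.15, adjusted p = 0.955) in the same edgeR fit, so none of the 4 passed. Without the whole mesenchyme, Aldh1a1 (0.44, SE 0.13, edgeR adjusted p = 0.0415) and Dhrs3 (0.49, SE 0.12, edgeR adjusted p = 0.0202) were called higher in Cd81-high cells. Aldh1a2 was called lower under finer clustering (-0.43, SE 0.11, edgeR adjusted p = 0.0172).

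**Figure D3:**
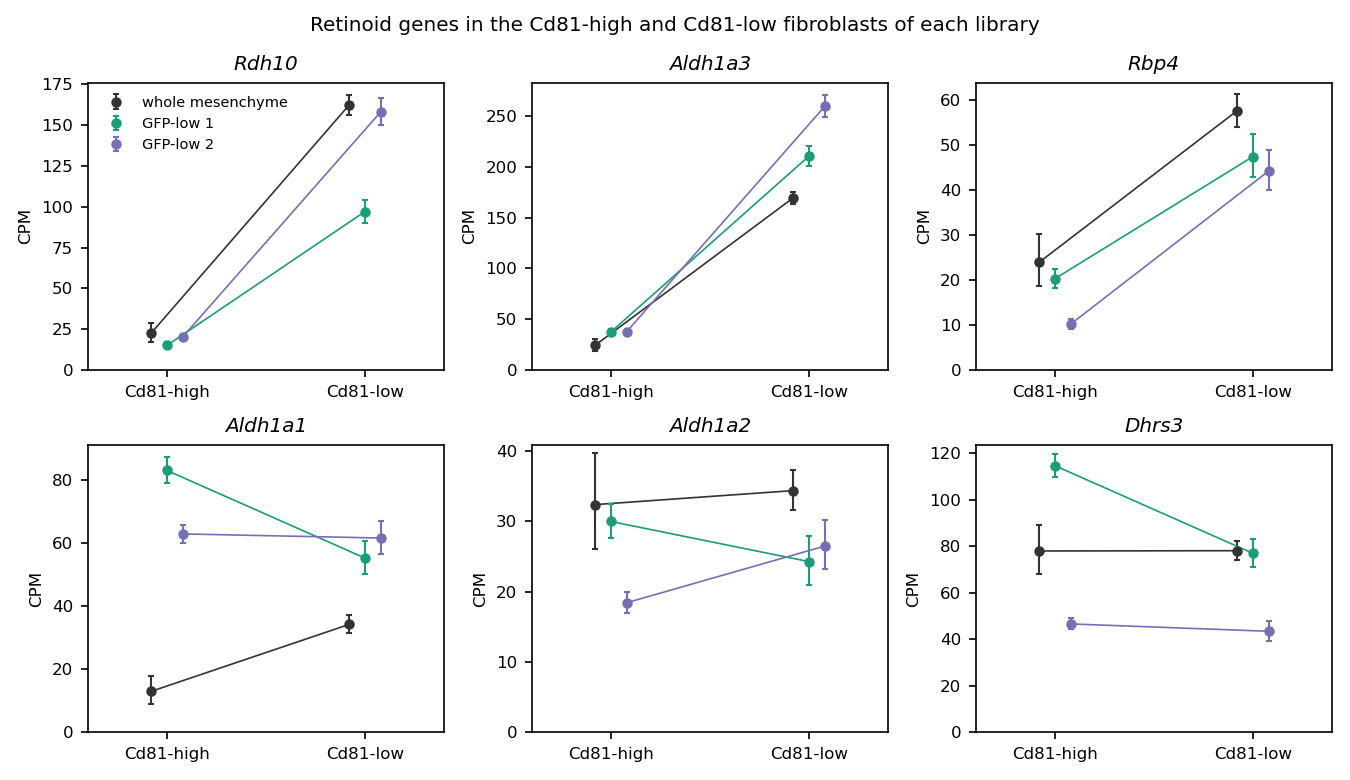
Level of 6 retinoid genes (CPM) in Cd81-high and Cd81-low fibroblast-like cells, 1 point per library with an exact 95% Poisson interval and a line joining the classes of a library. For Rdh10 (15.03 to 22.5 against 97.0 to 162 CPM) and Aldh1a3 (24.3 to 37.7 against 169 to 259.7 CPM) the classes do not overlap, while Aldh1a1 in Cd81-high cells spreads from 13.0 CPM in the whole mesenchyme to 83.0 CPM in GFP-low library 1.

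**Figure D4:**
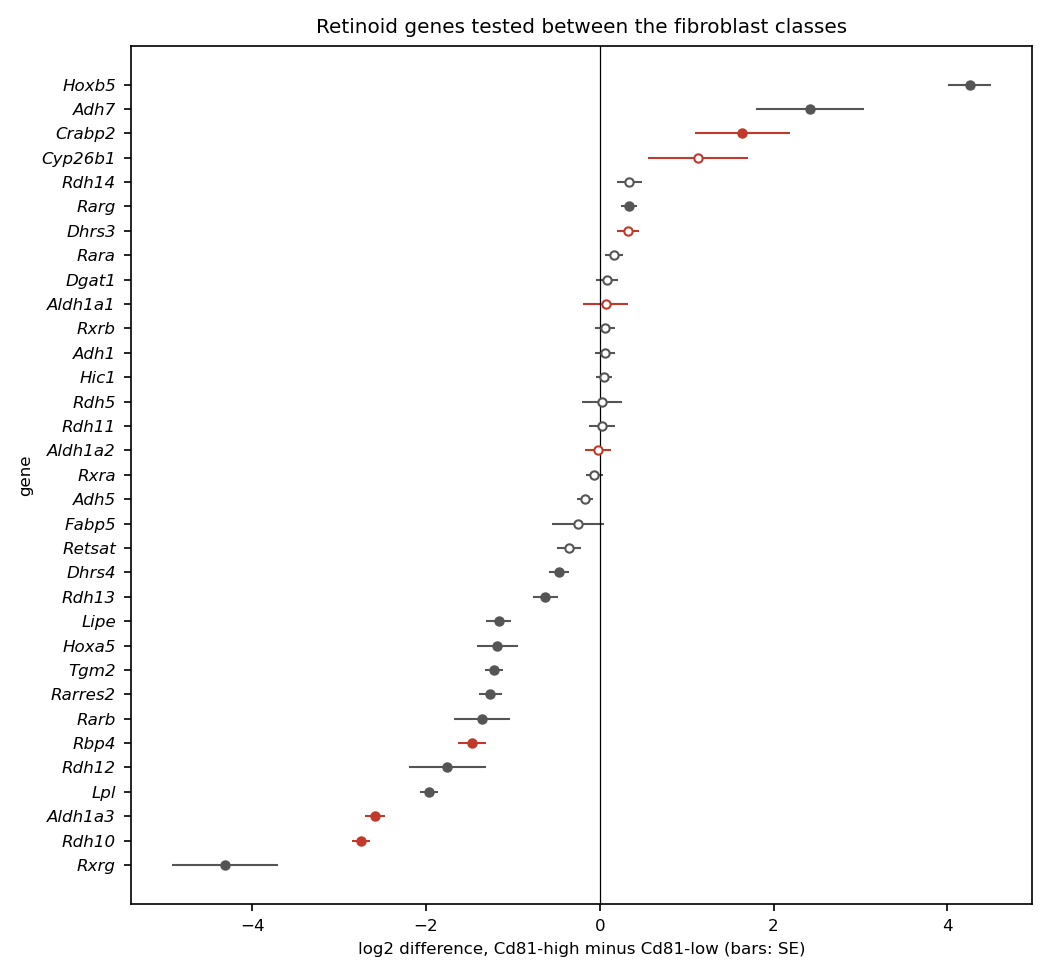
Log2 difference between Cd81-high and Cd81-low fibroblast-like cells with its standard error, from the edgeR fit over 3 libraries, for the 8 of the 9 genes that could be tested (red) and other retinoid genes (grey); filled points have an adjusted p under 0.05. Rdh10 (-2.74), Aldh1a3 (-2.58) and Rbp4 (-1.47) lie below 0, as do Lpl (-1.97) and Rxrg (-4.32), and Hoxb5 (4.26) lies above it.

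The other genes of the pathway were taken from lists of 49 genes, of which 26 could be tested in the same fit, 4 being higher and 10 lower in Cd81-high cells (median log2 difference -0.11). Over all 6201 genes tested, 13.6% were higher and 14.7% lower, which is the background for these counts and for those of each list below. The count of higher genes was near that share. No list was tested against it. Of the carriers and uptake genes, the endothelial retinol binding protein gene Rbp7 had 406 CPM in blood and 145 CPM in lymphatic endothelium-like cells of the whole mesenchyme and at most 1.39 CPM in the fibroblast classes. Fabp5, a fatty acid binding protein that can carry retinoic acid, had 774 CPM in glia-like and 180.4 CPM in blood endothelium-like cells. Stra6, the membrane receptor of RBP4, had 0 UMIs in both fibroblast classes and in telocyte-like cells.

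Of 8 genes of retinyl ester storage and release 4 were tested and 2 were lower in Cd81-high cells. The lipoprotein lipase gene Lpl had 142, 169 and 48.2 CPM in Cd81-high and 552, 751 and 197 CPM in Cd81-low cells (log2 difference -1.97, SE 0.10, edgeR adjusted p = 7.23e-07). The hormone-sensitive lipase gene Lipe fell by 1.16 on the log2 scale (SE 0.15, edgeR adjusted p = 0.000262) and was at 104 CPM in blood endothelium-like cells. Bco1, which cleaves carotene to retinal, had 11.0 CPM in telocyte-like cells of the whole mesenchyme and at most 1.23 CPM in the fibroblast classes. Lrat, which makes retinyl esters, stayed at or below 3.46 CPM in every class of the whole mesenchyme.

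Of 19 further alcohol and short-chain dehydrogenases 9 were tested, 1 higher and 3 lower. Adh7 was higher (log2 difference 2.42, SE 0.62, edgeR adjusted p = 0.0157) and Rdh12 lower (-1.75, SE 0.44, edgeR adjusted p = 0.0149) in Cd81-high cells, both from levels of at most 1.73 CPM. Rdh13 (-0.63) and Dhrs4 (-0.47) were also lower. Adh1, a broad alcohol dehydrogenase that oxidises retinol, had 46.1, 71.0 and 58.8 CPM in Cd81-high and 43.1, 61.4 and 75.7 CPM in Cd81-low cells but 5.12 CPM in telocyte-like cells of the whole mesenchyme. The other retinoic acid hydroxylase genes, Cyp26a1 and Cyp26c1, were not tested, and of the named classes of the whole mesenchyme only blood endothelium-like cells had a UMI of Cyp26a1.

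All 6 receptor genes were tested, 1 higher and 2 lower. Rarg was higher by 0.33 (SE 0.09, edgeR adjusted p = 0.0242), and Rarb (-1.36, SE 0.32, edgeR adjusted p = 0.0106) and Rxrg (-4.32, SE 0.61, edgeR adjusted p = 0.000514) were lower in Cd81-high cells. Rxrg was at most 1.51 CPM in fibroblasts and 83.0 CPM in glia-like cells, where Rarb also had its highest level of 31.1 CPM. Of 11 genes known to respond to retinoic acid 7 were tested, 2 higher and 4 lower. Hoxb5 was among the higher (log2 difference 4.26, SE 0.24, edgeR adjusted p = 1.34e-06). On the scale of the edgeR fit it had 14.1, 14.9 and 6.40 CPM in Cd81-high and 0.693, 0.669 and 0.470 CPM in Cd81-low cells. Rarres2, the chemerin gene, had 955, 1162 and 827 CPM in Cd81-high and 2079.6, 2532 and 2829.8 CPM in Cd81-low cells (log2 difference -1.26, SE 0.14, edgeR adjusted p = 8.55e-05). The transglutaminase gene Tgm2 was lower by a log2 difference of -1.22 (SE 0.10, edgeR adjusted p = 1.52e-05), and Hoxa5 (-1.18, edgeR adjusted p = 0.00420) and Rarb, which is in both lists, were also lower. Hoxa5 was at most 12.7 CPM and Rarb at most 4.97 CPM in the fibroblast classes on the scale of that fit. The response genes therefore did not move in 1 direction.

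Within the telocyte-like cells, finer clustering gave 3 groups in the whole mesenchyme. The 703 cells of the group led by Bmp3 and Sox6 had 456 CPM of Aldh1a1, 373 CPM of Rbp4 and 350.1 CPM of Rdh10. The 526 cells of the group led by Il1rl1, Nrg1 and Fst had 366, 294 and 298 CPM of the same genes, and 36.4 CPM of Aldh1a3. The remaining 396 cells were shallow, with a median of 1586 UMIs and 12.06% mitochondrial UMIs, and had 204, 138 and 325 CPM. All 3 groups carried the telocyte pattern of Aldh1a1 above Aldh1a3.

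Genes whose level followed each retinoid gene were ranked by Pearson's r of log2(CPM + 1) over 13 class sums of at least 50 cells, among 9931 genes, as a description without a test, since the sums share libraries and classes. For Aldh1a1 these were Fibin (0.80), Nbl1 (0.79) and Arhgap22 (0.77). Rdh10 was followed by Ugcg (0.95), Mgat4a (0.94) and Bmp5 (0.94). For Aldh1a3 they were Dnmt3l (0.93), Serpina3n (0.92) and Vcam1 (0.87), and for Aldh1a2 Plod2 (0.95), Fn1 (0.94) and P2ry1 (0.93). Rbp4 had Nxf7 (0.95), Neo1 (0.93) and Rab38 (0.91). Dhrs3 had Sntb2 (0.88), Pip4k2b (0.86) and Slc35a4 (0.86), and Cyp26b1 had Apln (0.98), P2ry6 (0.95) and Mecom (0.94).

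Aldh1a1 in the Cd81-high fibroblast-like cells differed between the libraries. Its level was 13.0 CPM (9.16 to 17.9) from 37 UMIs in the whole mesenchyme, 83.0 CPM (79.0 to 87.2) from 1597 UMIs in GFP-low library 1 and 62.9 CPM (60.2 to 65.8) from 1944 UMIs in GFP-low library 2. The whole mesenchyme stood apart from both, at 0.207 times (0.145 to 0.286) the lower GFP-low value. With 1 library in the first group there is no test between groups. As background, 0.382% of the 6540 genes that reached 20 CPM in these cells in at least 1 library were at least 2-fold lower, and 0.474% at least 2-fold higher, in the whole mesenchyme than in both GFP-low libraries, and 0.0917% had a ratio at or below that of Aldh1a1. Thinned to 1000 UMIs, 1.56% of the cells of the whole mesenchyme and 7.56% and 5.98% of those of GFP-low library 1 and 2 had an Aldh1a1 UMI (6.89%, 38.3% and 33.7% before thinning).

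The other fibroblast and the telocyte-like cells differed less. Cd81-low cells had 34.2 CPM (31.5 to 37.1), 55.3 CPM (50.3 to 60.6) and 61.6 CPM (56.5 to 67.1), the whole mesenchyme being again the lowest, at 0.619 times (0.547 to 0.701) the lower GFP-low value. That ratio did not reach 2-fold, which 0.413% of 6783 genes did in the same direction and 1.12% in the other, and 1.22% had a ratio at or below that of Aldh1a1. Under finer clustering it was 0.485 and did reach it. The Cd81-low cells lay mainly in clusters 0 and 8 in the whole mesenchyme, 7 and 6 in GFP-low library 1 and 0 and 6 in GFP-low library 2, and cluster 8 was shallow, with a median of 1771 UMIs and 12.56% mitochondrial UMIs. In telocyte-like cells the ratio was 1.48 (0.978 to 2.37), on 22 and 15 GFP-low cells. None of the 5 other retinoid genes that reached 20 CPM was at least 2-fold outside both GFP-low values in either fibroblast class, the Rbp4 level of Cd81-high cells coming to 2.35 times the lower and 1.18 times the higher GFP-low value.

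**Figure D5:**
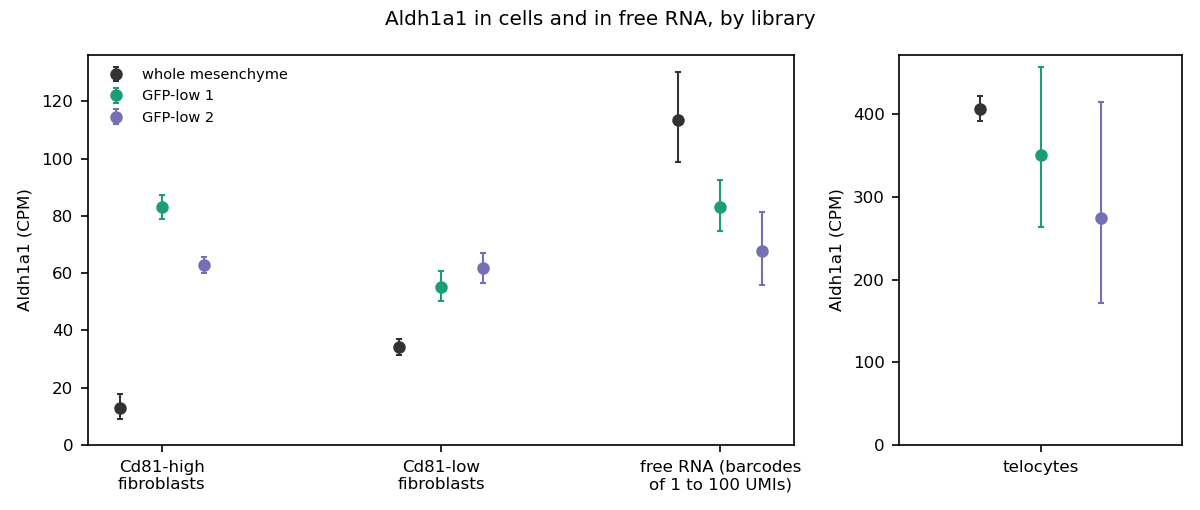
Aldh1a1 (CPM) by library in Cd81-high fibroblast-like cells, Cd81-low fibroblast-like cells and free RNA (left) and in telocyte-like cells (right), with exact 95% Poisson intervals. In Cd81-high cells the whole mesenchyme is at 13.0 CPM and the GFP-low libraries at 83.0 and 62.9 CPM, while free RNA is highest in the whole mesenchyme, at 114 CPM.

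Free RNA of the whole mesenchyme was not lower in Aldh1a1. It held 114 CPM of Aldh1a1 (208 UMIs) in the whole mesenchyme, 83.2 CPM (339 UMIs) in GFP-low library 1 and 67.7 CPM (112 UMIs) in GFP-low library 2. Read from barcodes of at most 50 UMIs, the levels were 100.3 CPM (84.5 to 118), 72.0 CPM (56.8 to 89.9) and 83.0 CPM (65.7 to 103), so the order of the GFP-low libraries turned and the interval of the whole mesenchyme overlapped with theirs. Cd81-high cells were thus at 0.115 times free RNA in the whole mesenchyme and at 0.998 and 0.929 times in the GFP-low libraries. The share of a cell's UMIs that came from free RNA was estimated from epithelial, red blood cell and plasma cell genes, which these cells should lack, at 2.64%, 0.211% and 10.1% of the Cd81-high sums, from 7, 15 and 3 genes. Shares of that size would bring 3.00, 0.176 and 6.86 CPM of Aldh1a1. The estimate is uncertain in GFP-low library 2, where the same 3 genes gave 36.1% for Cd81-low cells, or 24.5 of their 61.6 CPM of Aldh1a1, against 2.47% and 0.583% in the other libraries, and it may hold more than free RNA. Adamdec1, a marker of Cd81-low cells, gives a ceiling of another kind. In the whole mesenchyme it had 13615 CPM in those cells, 10438 CPM in telocyte-like and 8585 CPM in smooth muscle- or myofibroblast-like cells. Its level in Cd81-high cells (540, 289 and 248 CPM) was 6.78%, 14.7% and 13.9% of its free RNA level. If all of that Adamdec1 came from free RNA, the Aldh1a1 brought with it would be 7.70, 12.3 and 9.41 CPM. Against the measured 13.0, 83.0 and 62.9 CPM, both amounts were smaller than the measured level in each library, and larger relative to it in the whole mesenchyme. With the free RNA share subtracted the ratio of the libraries was 0.165.

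Other measures moved with the same split. The 450 Cd81-high cells of the whole mesenchyme came mainly from clusters 1 and 9, those of GFP-low library 1 from clusters 1 and 12 and those of GFP-low library 2 from clusters 2 and 5. Within cluster 1, Aldh1a1 was at 4.71 CPM in the whole mesenchyme (186 cells), 87.0 CPM in GFP-low library 1 (2267 cells) and 71.3 CPM in GFP-low library 2 (60 cells). The order was the same within cluster 5, with 24.4, 86.6 and 66.3 CPM, and within cluster 9, with 29.5 CPM in the whole mesenchyme and 84.3 CPM in GFP-low library 2. Telocyte markers in Cd81-high cells summed to 429 CPM in the whole mesenchyme and to 249 and 265 CPM in the GFP-low libraries. Their list holds Pdgfra, whose reporter set the GFP-low sort, so this sum is not independent of the sort. Its bearing on Aldh1a1 was not tested.

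The sex of the mice also differed between libraries. Xist, the RNA of the inactive X chromosome, had 434 CPM over the cells of the whole mesenchyme and 0.168 and 0.049 CPM in the GFP-low libraries, while the Y-linked gene Ddx3y had 109, 118 and 146 CPM. The whole mesenchyme thus held cells of both sexes and the GFP-low libraries nearly only male cells. In the Cd81-high cells of the whole mesenchyme, Aldh1a1 was at 4.88 CPM (6 UMIs) in the 185 cells with Xist and no Y-linked UMI, at 18.1 CPM (20 UMIs) in the 166 cells with a Y-linked UMI and no Xist, and at 25.2 CPM (11 UMIs) in the 89 cells with neither. Cells with a Y-linked UMI and no Xist had 84.0 and 61.1 CPM in GFP-low library 1 and 2. Over such cells alone the ratio of the whole mesenchyme to the lower GFP-low value was 0.297, against 0.207 over all cells, and it rests on the 20 UMIs of the whole mesenchyme. Y-linked UMIs can also come from free RNA, and the part of sex in the difference was not tested. In telocyte-like cells of the whole mesenchyme the 2 sets had 389.8 CPM (Xist) and 415 CPM (Y-linked), and in Cd81-low cells 31.6 and 38.6 CPM. Mice were not identified per cell, so sets of cells are not replicates and no test was made.

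The difference between the fibroblast classes could be compared between groups in 1 edgeR fit. The log2 difference of Aldh1a1 between Cd81-high and Cd81-low cells was -1.36 in the whole mesenchyme, 0.68 in GFP-low library 1 and 0.18 in GFP-low library 2. Its interaction with the group was -1.82 (SE 0.33, edgeR adjusted p = 0.239 over 6201 genes) and did not pass. No gene passed in that comparison (percent called 0 in either direction), with 655 of 6201 genes (10.6%) at an unadjusted p under 0.05 in edgeR and no other tool run.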

How the data were processed

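Droplet 3' single-cell RNA counts of 3 colon libraries were used (10x Genomics 3' assay, per the labels). The authors deposited unfiltered matrices of raw UMI counts, 31053 genes by 6794880 barcodes per library, made with Cell Ranger 3.0.2 and mm10, per the file headers and the submitters' processing notes. How reads matching several genes were counted is not given in the sources used here. The libraries hold 41863444, 39190629 and 52313765 UMIs, which sets the counting error of each level. Groups come from the sample titles.

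The 9 genes, the lists of other retinoid genes, the markers and the tests were chosen with earlier results of these data known. Cells were clustered (scanpy 1.11.5, 2000 variable genes, 30 principal components, 15 neighbours, Leiden resolution 1) on a random selection of 15578 genes that included all 119 markers and left out the retinoid genes. A cluster was named where at least 3 markers of a type reached 20 CPM and 1.5 times the mean of clusters of other types. Shallow clusters without a marker among their 10 leading genes were left unnamed. These were 2 clusters (1255 cells), with median depths of 0.302 and 0.306 times those of their libraries. They had 7 elevated markers each, of Cd81-high and of Cd81-low fibroblasts respectively. Classes rest on the same cells in which levels are given, though the tested genes were held out of the clustering. Scrublet called 2, 3 and 3 cells, under 0.5%, so it did not work and no doublets were removed. Any 2 libraries shared 6 to 11 cell barcodes, and the 2 GFP-low libraries differed by more than counting noise (chi-square per degree of freedom 166 over 13744 genes).

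UMI counts per library and class of at least 20 cells were tested with edgeR 4.0.16 (R 4.3.3), TMM scaling, filterByExpr and the library as a block. Both classes of a library are the same sample, so the libraries pair the sums, and the deviations of paired sums correlated at 0.512, 0.776 and 0.673. The script was tested on simulated data. A free RNA profile came from barcodes of 1 to 100 UMIs. Its share in a class was estimated from epithelial, red blood cell and plasma cell markers with at least 10 free UMIs. A result of 1 gene of these lists, counted in their totals, is not reported here. Named genes were all 9, up to 3 per pathway list with the largest change past the test or above 20 CPM in a class, the 3 closest in pattern, and markers or sex-linked genes beside a result. The genes leading a subcluster, Lrat, Stra6, Cyp26a1, Cyp26c1, Bco1 and Aldh1a7 were named after their values were seen. Alternatives were DESeq2 1.42.0, no filter, no block, each library left out, thinning to 1000 UMIs, classes from a Cd81 UMI, resolution 2, doublet scores, free RNA subtracted, at least 2000 UMIs and at most 10% mitochondrial UMIs. The split by Y-linked UMIs and the interaction fit were added after seeing the data.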

Additional observations from a re-analysis of the deposited data

Results flagged for a closer look

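Aldh1a1 was singled out because the difference between the fibroblast classes pointed in opposite directions in the groups. Cd81-high cells were lower than Cd81-low cells in the whole mesenchyme (log2 difference -1.36) and higher in both GFP-low libraries (0.68 and 0.18). The difference in GFP-low library 2 was small. Before TMM scaling its Cd81-high and Cd81-low levels were 62.9 and 61.6 CPM, with overlapping intervals. The interaction of class and group was -1.82 (SE 0.33, edgeR adjusted p = 0.239 over 6201 genes), so it did not pass after adjustment. The fit rests on 1 whole mesenchyme library, which is assumed to vary like the GFP-low libraries, and it was added after seeing the data.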

How the results depend on the processing

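Rdh10, Aldh1a3 and Rbp4 were called lower in Cd81-high cells in all 13 alternatives, where the count of lower retinoid genes was 3, or 4 at clustering resolution 2. The count of higher genes (1, Crabp2) was 0 with DESeq2, without the replicate block, thinned to 1000 UMIs, with classes from a Cd81 UMI, at resolution 2, with doublet scores left out, with free RNA subtracted and at 10% mitochondrial UMIs, 2 with no filter, and 0 to 2 with 1 library left out (2 without the whole mesenchyme, 0 without either GFP-low library). Of the other retinoid genes, 4 higher became 2 when thinned, 1 with classes from a Cd81 UMI, 1 with free RNA subtracted and 2 to 4 with 1 library left out (2 without GFP-low library 1), and 10 lower became 6 when thinned and 3 with classes from a Cd81 UMI. Over all genes, 845 higher and 910 lower became 364 and 450 without the replicate block, 417 and 451 thinned, 141 and 317 with classes from a Cd81 UMI, and 608 to 1000 and 663 to 938 with 1 library left out. Without the block, no other of the 9 genes lost or gained a call. The Aldh1a1 ratio of the whole mesenchyme to the lower GFP-low value in Cd81-high cells was between 0.157 and 0.248 in the alternatives listed and 0.297 over cells with a Y-linked UMI alone. In Cd81-low cells it was 0.485 at resolution 2 and 0.555 to 0.679 otherwise. Of the further values for single genes, 411 were counted as the same, 41 lost a call, 6 gained one, 10 moved and 0 reversed with a call. Counted as the same were differences whose call did not change, also where an uncalled difference changed sign, and CPM levels within their Poisson interval. The 10 that moved were CPM levels outside it. The causes were not tested. By CPM, the highest class held for 7 of 7 genes, or for 6 when thinned and at resolution 2, where Aldh1a2 was highest in Cd81-low cells. Depth limits Crabp1, Crabp2 and Cyp26b1 outside the blood endothelium, which rest on few UMIs, and the telocyte-like cells of the GFP-low libraries.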

Other observations

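Among Cd81-low fibroblast-like cells, finer clustering separated a group of 260 cells (157, 87 and 16 in the 3 libraries) whose leading genes were Aldh1a2, Bche, Alpl, Il11 and Pianp. It was chosen after its values were seen, so these are descriptions. Aldh1a2 stood there at 125 CPM in the whole mesenchyme and 129.9 CPM in GFP-low library 1, and between 13.9 and 45.1 CPM in the other Cd81-low groups. The same cells had 103 and 33.8 CPM of Rdh10 and 136 and 152 CPM of Aldh1a3.

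An unnamed cluster of 60 cells, of which 40 lay in the whole mesenchyme, combined several of the genes. In those 40 cells Rbp4 stood at 501 CPM (31 UMIs), Aldh1a1 at 291 CPM (18 UMIs) and Rdh10 at 275 CPM (17 UMIs). Its leading genes were Saa3, Hp, Sfrp2 and Tcf21. The median depth of the cluster was 0.306 times that of its samples, and its median mitochondrial share was 0.06%.

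In telocyte-like cells of the whole mesenchyme, Rbp4 stood at 466 CPM in the 526 cells with an Xist UMI and no Y-linked UMI and at 284 CPM in the 589 cells with a Y-linked UMI and no Xist UMI. Rdh10 had 285 and 369 CPM in the same sets. The GFP-low telocyte-like cells, nearly all male, had 714 and 686 CPM of Rbp4. The number of mice behind each set is not given in the sources used here, and no test was made.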
